A study of Mus musculus with 40 samples.

Results

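The genes described are 33 genes of red cell formation and heme synthesis, measured in the bones of ovariectomized mice. Their probes were picked by name, as those whose gene symbol, current or older, is one of the 33 names. The list of names itself was set with earlier results of these data known. All 33 had a probe, so they are 33 of the 17914 genes and 56 of the 25697 probes in the deposited table. Of these genes 5 stood under an older name in the table (Eraf for Ahsp, Spnb1 for Sptb, Epb4.1 for Epb41, Epb4.2 for Epb42 and Epb4.9 for Dmtn). The mice were C57BL/6 females, 15 weeks old, either wild type (WT) or carrying a deletion of activation function AF-1 of estrogen receptor α (Era-AF1 deletion, here KO). All of them, controls included, had been ovariectomized. At 1 week after surgery they received either estradiol (E2, 115 µg/kg, under the skin) or olive oil as vehicle, and RNA was taken 18 h later from vertebral bodies L5 and L6 (labelled trabecular) or from flushed long-bone shafts (labelled cortical). The shafts are given as femora and tibiae in the protocol and as femur alone in the sample characteristics. Bone, genotype and treatment gave 8 groups of 5 arrays. How the deletion was made is not stated, nor if vertebrae and shafts were taken from 1 animal, nor if replicates are different animals; p-values therefore cover the variation among these arrays only, some of which may be technical.

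Red cells form in the marrow, where committed progenitors multiply under erythropoietin and then fill with hemoglobin while they remodel their membrane and lose their nucleus. A small group of transcription factors, led by GATA1, TAL1 and KLF1, switches on the globins, the enzymes of heme synthesis and the proteins of the red cell membrane and its skeleton. Heme synthesis starts and ends in the mitochondrion, needs imported glycine and iron, and in erythroid cells is limited by its first enzyme, ALAS2. Vertebral bodies hold marrow between their trabeculae, and flushing rinses the marrow cavity of a shaft; the protocol mentions flushing for the shafts only.

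The RefSeq promoters of 5 genes are shown because these genes span the roles described here (transcription factor, heme enzyme, nuclear regulator, membrane protein) and were each called different between the bones at least once. Each window runs from 250 bases before to 50 bases after the annotated start on build GRCm38.p6, 5′ to 3′ on the gene's strand: Gata1 at chrX:7967861-7968160 (minus), Klf1 at chr8:84901732-84902031 (plus), Alas2 at chrX:150547167-150547466 (plus), Hemgn at chr4:46404134-46404433 (minus) and Rhag at chr17:40810899-40811198 (plus). Capitals mark 2 kinds of letters found on either strand: a GATA element (AGATAA, with the forms AGATAG, further TGATAA, plus the form TGATAG), the type of sequence that GATA1 binds, and a CACC element (CCNCNCCC), the type that KLF1 binds. Overlapping matches run together in capitals.
Gata1: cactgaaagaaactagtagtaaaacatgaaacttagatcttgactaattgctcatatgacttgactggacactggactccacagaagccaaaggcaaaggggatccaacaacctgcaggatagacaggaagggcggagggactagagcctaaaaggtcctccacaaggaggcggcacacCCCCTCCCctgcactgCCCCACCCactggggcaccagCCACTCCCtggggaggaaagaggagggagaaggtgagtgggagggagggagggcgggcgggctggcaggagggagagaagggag
Klf1: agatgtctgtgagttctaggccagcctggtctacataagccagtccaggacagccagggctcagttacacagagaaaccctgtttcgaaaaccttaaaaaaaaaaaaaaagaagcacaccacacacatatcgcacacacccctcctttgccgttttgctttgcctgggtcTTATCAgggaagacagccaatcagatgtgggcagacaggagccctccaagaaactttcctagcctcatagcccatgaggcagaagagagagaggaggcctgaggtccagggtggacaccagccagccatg
Alas2: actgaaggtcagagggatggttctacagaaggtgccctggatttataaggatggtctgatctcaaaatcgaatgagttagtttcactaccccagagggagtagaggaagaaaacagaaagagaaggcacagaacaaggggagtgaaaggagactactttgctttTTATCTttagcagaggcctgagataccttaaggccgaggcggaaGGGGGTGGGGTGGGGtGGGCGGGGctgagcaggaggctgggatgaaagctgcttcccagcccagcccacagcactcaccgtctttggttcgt
Hemgn: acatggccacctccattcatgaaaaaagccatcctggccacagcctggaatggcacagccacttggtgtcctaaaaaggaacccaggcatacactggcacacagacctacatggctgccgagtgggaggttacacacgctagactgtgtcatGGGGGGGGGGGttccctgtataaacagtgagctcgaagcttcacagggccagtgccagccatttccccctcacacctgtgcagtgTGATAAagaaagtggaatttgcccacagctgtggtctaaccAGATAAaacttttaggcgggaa
Rhag: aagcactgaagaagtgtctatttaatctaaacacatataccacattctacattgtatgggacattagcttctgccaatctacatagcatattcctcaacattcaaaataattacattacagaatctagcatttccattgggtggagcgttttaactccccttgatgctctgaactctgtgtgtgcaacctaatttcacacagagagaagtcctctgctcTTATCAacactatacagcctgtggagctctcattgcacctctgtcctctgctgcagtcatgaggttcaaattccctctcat
The Alas2 window held a GATA element with its first base at position -86 from the start (TTATCT as read on this strand), with overlapping CACC elements nearer the start. The Klf1 window held 1 GATA element, at position -80, and the Rhag window 1, at position -31. The Gata1 window held 3 CACC elements and no GATA element. In the Hemgn window GATA elements stood at positions -13 and 29, and its CACC matches were all within 1 run of G. The table held 31 promoters of 25 of the genes. A GATA element was found in 58.1% of them against 29.8% of all 32851 promoters, a CACC element in 71.0% against 49.5%, and both in 29.0% against 10.2%. These are matches of letters, and binding was not measured.

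Each array gave 1 colour of light intensity per probe, and values below are log2 intensities after background correction and quantile normalization, so a difference of 1 is a doubling of intensity. The arrays lay on 5 BeadChips, and each BeadChip carried 1 array of every group. The trabecular arrays of BeadChip 1 stood apart, with 8052 to 9218 probes detected against 10357 to 11203 on the other trabecular arrays; cortical arrays had 9880 to 11691. Esr1, the targeted gene, had a mean log2 intensity of 7.73 ± 0.09 in trabecular WT vehicle and 7.66 ± 0.23 in trabecular KO vehicle (SD, n = 5), but where its probe lies relative to the deletion is unknown here, so this does not check the deletion. In bulk RNA, fewer erythroid cells and less of an RNA per erythroid cell cannot be told apart.

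Most of the genes were detected in both bones. Of the 33 genes, 26 were detected (detection p under 0.01) on all 40 arrays. The share of all genes detected on all 40 is not given here, so this count is not read as particular to the 33. Sptb was detected on 39, Xpo7 on 19 trabecular and 18 cortical arrays, and Rhd, the Rh blood group protein, on 10 trabecular and 2 cortical arrays. Epb42, a membrane skeleton protein, and Bpgm, the mutase that makes bisphosphoglycerate, were detected on 0 arrays. Add2 (β-adducin) was detected on 2 trabecular arrays, and Cpox, coproporphyrinogen oxidase, on 3 trabecular and 1 cortical array. These last 4 genes were not tested, which says only that their probes were not above background. In all 8 groups the levels of the untested Epb42 probe lay between 4.80 and 6.06 and those of the Cpox probe between 4.79 and 7.0 on the log2 scale. That left 29 genes tested between the bones and within trabecular bone, and 28 within cortical bone, where Rhd was detected on too few arrays.

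The first comparison is between the bones: which erythroid genes differ between vertebral bodies and flushed shafts. Most of the genes were higher in trabecular bone, by 0.44 to 1.65 on the log2 scale for those called, in all 4 combinations of genotype and treatment. In WT vehicle, 16 of 29 genes were called (limma, adjusted p under 0.05 over all genes), 15 higher and 1 lower in trabecular bone, where 20.6% of all 9451 genes were called and 9.01% were called higher. In WT E2 it was 15 genes, 14 higher and 1 lower, against 19.4% of all genes called and 7.99% called higher. In KO vehicle it was 17, 16 higher and 1 lower, against 22.3% and 9.5%. In KO E2 it was 16, 15 higher and 1 lower, against 22.9% and 11%. Rhd passed the filter on dim probes through its trabecular arrays, and without it 15, 15, 16 and 15 of 28 genes were called, with medians of 0.62, 0.62, 0.61 and 0.74. The share of members called higher, without Rhd too, lay above that of all genes in each of these comparisons. They use separate arrays but share a common fit, a common normalization and the same BeadChips. The list was also set with earlier results of these data known, so the 4 comparisons are not independent support. The median log2 difference of the 29 genes was 0.62, 0.63, 0.63 and 0.74 in the same order, and that of all genes 0.06, 0.05, 0.06 and 0.06. Within each of the 5 BeadChips the median difference of the genes was positive in all 4 comparisons, from 0.16 to 1.44. Leaving out Rhd, the 5 trabecular arrays lay wholly above the 5 cortical ones for 5, 10, 10 and 11 genes, against 6%, 5.79%, 6.58% and 7.73% of all genes. Sptb lay wholly below in WT vehicle, WT E2 and KO E2.

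How many genes pass the threshold depends on the scaling. When arrays were scaled by their median instead of quantile-normalized, 2, 1, 2 and 1 genes were called, with medians of 0.54, 0.53, 0.49 and 0.68. Under that scaling 7.85%, 6.98%, 8.51% and 6.42% of all genes were called, and the share of all calls that were higher in trabecular bone went from 43.7%, 41.2%, 42.7% and 47.8% to 7.55%, 3.94%, 6.34% and 10.2%. The median of all genes moved from between 0.05 and 0.06 to between -0.04 and -0.01. No called difference changed direction under any alternative. At an adjusted p under 0.01, 33 of 64 calls were lost, and 11 of 62 were lost when only the arrays of the compared groups were fitted. In the gene-by-gene values below, the fit with the BeadChip as a block is given mostly where it adds a call. The calls lost to scaling, threshold or fewer groups are not given by gene.

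**Figure D1:**
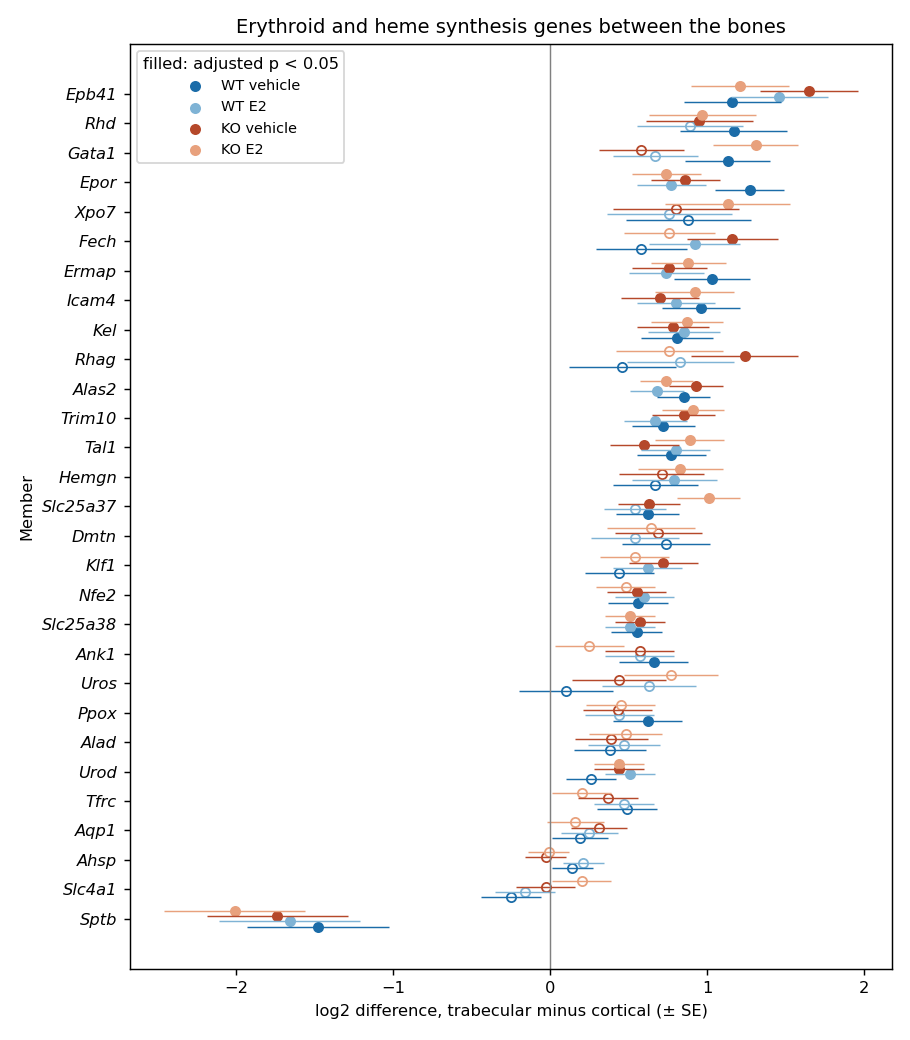
The log2 difference between trabecular and cortical bone is plotted for each of the 29 tested genes (rows), with 1 point and its standard error for each combination of genotype and treatment; filled points have an adjusted p under 0.05. Most points lie right of 0, Sptb alone lies far to the left, and Ahsp and Slc4a1 sit near 0.

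Among the transcription factors, Tal1, a helix-loop-helix factor needed to make blood cells, was called in all 4 comparisons. Its log2 intensities on BeadChips 1 to 5 in WT E2 were 12.07, 11.89, 11.76, 11.87 and 12.13 in trabecular bone and 10.86, 11.10, 10.82, 11.55 and 11.37 in cortical bone. Every trabecular array lay above every cortical one. The log2 difference of Tal1 was 0.77 ± 0.22, 0.80 ± 0.22, 0.60 ± 0.22 and 0.89 ± 0.22 (SE) in WT vehicle, WT E2, KO vehicle and KO E2, with adjusted p of 0.0103, 0.00901, 0.0435 and 0.00323. Gata1, the zinc finger factor at the head of the erythroid program, was called in 2 of the 4. Its trabecular values in KO E2 were 9.57, 8.87, 8.44, 8.90 and 9.07 and its cortical values 7.14, 7.78, 8.08, 8.03 and 7.26. Here the groups did not overlap, and the log2 difference was 1.31 ± 0.27 (adjusted p 0.000741). In WT vehicle Gata1 had a log2 difference of 1.13 ± 0.27 (adjusted p 0.00282), although on BeadChip 1 the trabecular array (8.01) lay below the cortical one (8.21). In WT E2 (0.67 ± 0.27, adjusted p 0.0762) and KO vehicle (0.58 ± 0.27, adjusted p 0.122) it was not called.

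Klf1, which switches on adult β-globin, was called in WT E2 (0.62 ± 0.22, adjusted p 0.045) and KO vehicle (0.72 ± 0.22, adjusted p 0.0168). In WT vehicle its log2 difference was 0.44 ± 0.22 and in KO E2 0.54 ± 0.22, with adjusted p of 0.154 and 0.0718; with the BeadChip as a block the KO E2 value had an adjusted p of 0.048. Nfe2, a leucine zipper factor of erythroid cells and megakaryocytes, was called in 3 of the 4 comparisons with differences of 0.55 to 0.60. Its KO E2 value, 0.48 ± 0.19, missed the threshold (adjusted p 0.0603) and passed it with the block (0.0405). Hemgn, the nuclear protein hemogen, was called in WT E2 (0.79 ± 0.27, adjusted p 0.035) and KO E2 (0.83 ± 0.27, adjusted p 0.0228), and its values in WT vehicle and KO vehicle were 0.67 and 0.71. With the block these last had adjusted p of 0.0382 and 0.0286.

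Epor, the receptor through which erythropoietin keeps progenitors alive, was higher in trabecular bone in all 4 comparisons. In KO vehicle its trabecular log2 intensities were 9.62, 9.83, 9.74, 9.73 and 9.92 and its cortical ones 8.70, 9.11, 8.87, 8.68 and 9.16. The groups were well separated, with little spread inside either. The log2 difference of Epor was 1.27 ± 0.22 in WT vehicle (adjusted p 6.68e-05), 0.77 ± 0.22 in WT E2 (0.0122), 0.86 ± 0.22 in KO vehicle (0.00435) and 0.74 ± 0.22 in KO E2 (0.0129). In KO E2 the trabecular and cortical arrays overlapped, and within BeadChips the difference ran from 0.02 to 1.93. Tfrc, the transferrin receptor that brings iron into the cell, was not called in any of them. Its differences were 0.49, 0.47, 0.37 and 0.20 (SE 0.19 each), with adjusted p from 0.0625 to 0.477. With the block it was called in WT vehicle (0.0272) and WT E2 (0.0371), and with its 2 probes averaged in WT vehicle (0.46, adjusted p 0.0319) and KO vehicle (0.44, adjusted p 0.0368).

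The first enzyme of heme synthesis was called in all 4 comparisons. Alas2, which joins glycine and succinyl-CoA, had trabecular log2 intensities of 13.90, 14.25, 14.42, 14.70 and 14.42 in WT vehicle and cortical ones of 12.95, 13.86, 13.80, 13.59 and 13.22. In KO vehicle they were 14.55, 14.28, 13.94, 14.10 and 14.01 against 13.44, 13.41, 13.22, 12.88 and 13.29. In each of the 4 comparisons every trabecular array lay above every cortical one. The log2 difference of Alas2 was 0.85 ± 0.17 (adjusted p 0.0004), 0.68 ± 0.17 (0.00481), 0.93 ± 0.17 (0.000137) and 0.74 ± 0.17 (0.00202), a fold of 1.61 to 1.90, and it was positive on all 5 BeadChips each time.

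Of the later enzymes, 3 were called at least once. Urod, which decarboxylates uroporphyrinogen, was called in 3 comparisons with differences of 0.44 to 0.51; in WT vehicle it was 0.26 ± 0.16 (adjusted p 0.271), where the trabecular array of BeadChip 1 (13.05) lay below all 5 cortical arrays (13.62 to 13.92). Fech, which inserts iron into the porphyrin ring, was called in WT E2 (0.92 ± 0.29, adjusted p 0.0224) and KO vehicle (1.16 ± 0.29, adjusted p 0.00359). Its KO vehicle values were 9.90, 9.30, 9.01, 9.16 and 8.96 in trabecular and 8.64, 8.35, 6.93, 8.23 and 8.41 in cortical bone. These groups did not overlap, and the cortical array of BeadChip 3 was the lowest of all 40. In WT vehicle Fech differed by 0.58 ± 0.29 (adjusted p 0.15) and in KO E2 by 0.76 ± 0.29 (adjusted p 0.0521; 0.044 with the block). With the kept Fech probes averaged, neither call held (0.74 in WT E2, adjusted p 0.0892; 0.79 in KO vehicle, adjusted p 0.0627). Ppox, which oxidizes protoporphyrinogen, was called in WT vehicle (0.62 ± 0.22, adjusted p 0.0411) and had differences of 0.43 to 0.45 in the others. With its probes averaged Ppox was instead called in WT E2 (0.66, adjusted p 0.0487) and KO vehicle (0.70, adjusted p 0.0315), and not in WT vehicle (0.61, adjusted p 0.0625).

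Alad, the porphobilinogen synthase, and Uros, which closes the tetrapyrrole ring, were not called. The differences of Alad were 0.38 to 0.48 (SE 0.23), with adjusted p from 0.134 to 0.256. Those of Uros were 0.10, 0.63, 0.44 and 0.77 (SE 0.30), and with the block the last, in KO E2, had an adjusted p of 0.0354. With its 2 probes averaged, the KO E2 difference was 0.50 and was not called (adjusted p 0.0962). Averaged, Uros was called in WT E2 alone (0.60, adjusted p 0.0499). The WT vehicle value of Uros includes a BeadChip 1 trabecular array at 8.86 beside 10.83 to 11.55 on the other 4. The mitochondrial carriers that feed the pathway were called in 7 of 8 values. Slc25a38, the glycine importer, was called in all 4 comparisons with differences of 0.51 to 0.57. Slc25a37, the iron importer mitoferrin, was called in 3, from 0.62 to 1.01, and missed in WT E2 (0.54 ± 0.20, adjusted p 0.0519; 0.0355 with the block).

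**Figure D2:**
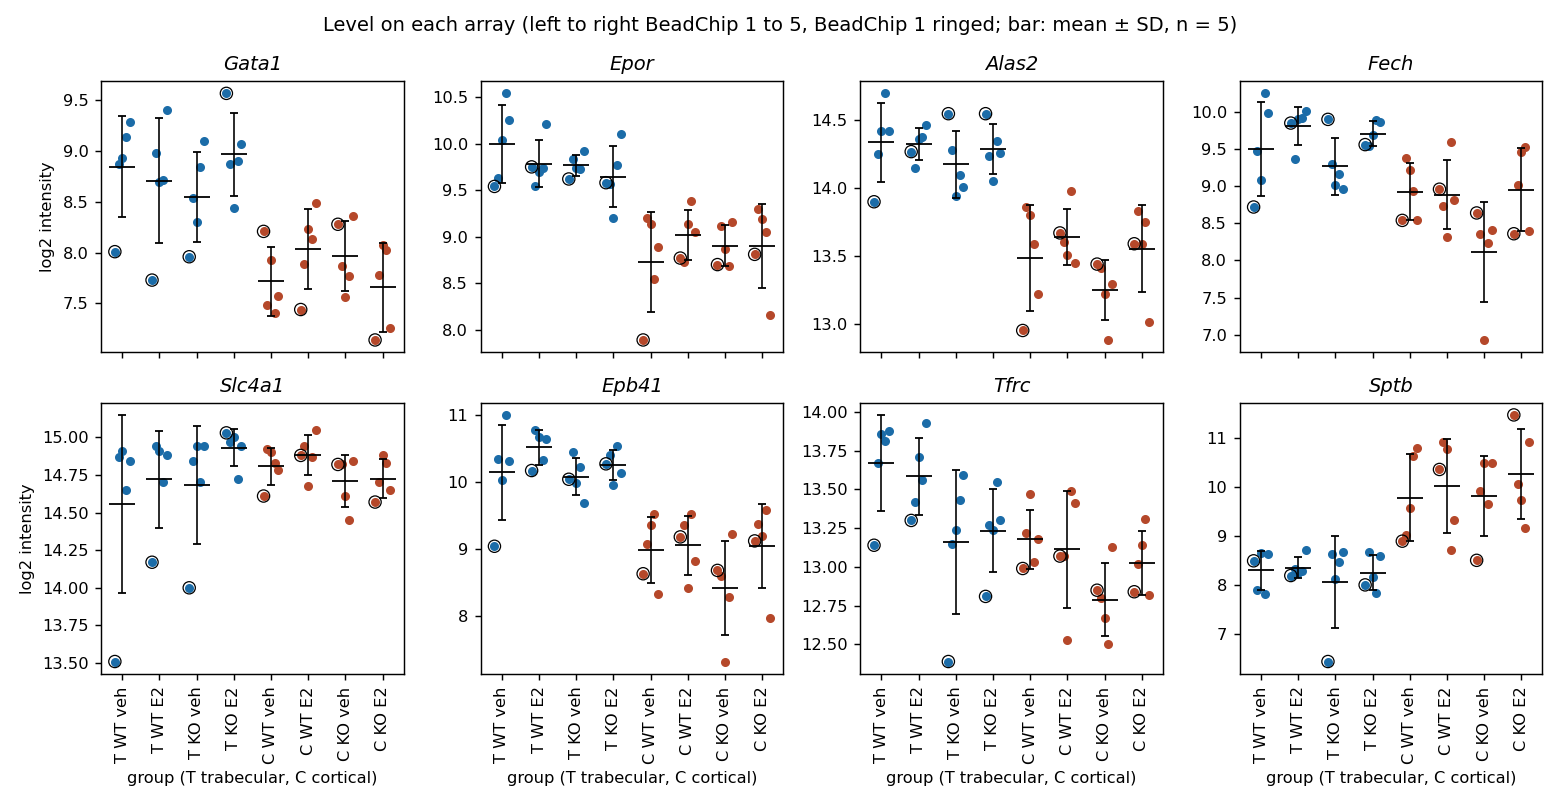
The log2 intensity of 8 of the genes is plotted for every array, by group, with blue points for trabecular and red points for cortical bone; bars give the mean and SD of 5 arrays and rings mark BeadChip 1. Alas2, Epor and Epb41 lie higher in the trabecular groups, Slc4a1 does not, and Sptb lies higher in the cortical groups.

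Ahsp and the anion exchanger were not called in any comparison. Ahsp, the chaperone that binds free α-globin, lay between 14.41 and 15.03 on the trabecular and between 14.15 and 14.95 on the cortical arrays. Its log2 difference was 0.14, 0.21, -0.03 and -0.01 (SE 0.13), with adjusted p from 0.268 to 0.963. Slc4a1, the anion exchanger of the red cell membrane, differed by -0.25, -0.16, -0.03 and 0.20 (SE 0.19; adjusted p 0.362 to 0.941). Its WT vehicle trabecular values were 13.51, 14.87, 14.91, 14.65 and 14.84 and its cortical ones 14.61, 14.92, 14.90, 14.83 and 14.78. Only the trabecular array of BeadChip 1 stood apart. The probes of both genes were near the top of the scale, whose highest value on an array averaged 15.17, and whether that limits the differences they can show was not tested. Of the globin chains (3 of them named here after their values were seen), Hba-a1 (α-globin) differed by -0.18 to 0.12 (SE 0.11), Hbb-b1 (β-globin) by -0.18 to 0.35 (SE 0.55) and Hbb-b2 (β-globin) by -0.03 to 0.89 (SE 0.63), and none was called. Hbq1a, a θ-type globin chain, was called in all 4 comparisons, from 0.77 to 1.34, and its near copy Hbq1b in 1 (0.35 to 1.01); probes of such similar genes may not tell them apart.

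Of the other membrane proteins, 3 blood group carriers were called in all 4 comparisons. Kel, the Kell metalloprotease, had differences of 0.78 to 0.87, Icam4, the Landsteiner-Wiener adhesion molecule, 0.70 to 0.96, and Ermap, the Scianna protein, 0.74 to 1.03. Rhag, the glycoprotein partner of the Rh proteins, was called in KO vehicle alone. Its values there were 10.76, 10.03, 9.03, 10.24 and 10.16 in trabecular and 9.79, 8.84, 7.22, 8.74 and 9.43 in cortical bone, a difference of 1.24 ± 0.34 (adjusted p 0.00761). On BeadChip 3 both bones had their lowest value, and the groups overlapped. In the other comparisons Rhag differed by 0.46, 0.83 and 0.76 (SE 0.34) in WT vehicle, WT E2 and KO E2, with adjusted p of 0.353, 0.0755 and 0.0968, and in WT E2 0.045 with the block and 0.0367 with its probes averaged. Rhd, detected on few arrays, had log2 intensities of 6.46, 6.87, 6.87, 7.69 and 7.52 in trabecular and 5.37, 6.05, 6.16, 6.23 and 5.75 in cortical bone with WT vehicle, where it was detected on 4 and 1 of 5 arrays. Since it entered the fit through the trabecular arrays, its adjusted p under 0.05 in 3 comparisons is no support for a difference. In KO vehicle it was detected on 1 trabecular array (8.38 on BeadChip 1; 5.84 to 6.52 on the others) and 0 cortical arrays, and without that array its difference was 0.54 (adjusted p 0.205) in place of 0.95. In KO E2 it was detected on 2 trabecular and 0 cortical arrays, with mean log2 intensities of 6.71 and 5.74. Most of the trabecular arrays there were also below detection, so no least difference can be given. Aqp1, the water channel, was not called (0.16 to 0.31).

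The membrane skeleton split. Epb41, the protein that joins spectrin to actin, had the widest difference of the higher genes in WT E2 and KO vehicle. In KO vehicle its log2 intensities were 10.04, 10.44, 9.99, 10.23 and 9.69 in trabecular and 8.68, 8.59, 7.32, 8.29 and 9.23 in cortical bone. The groups did not overlap there, nor in WT E2 and KO E2. Its log2 difference was 1.16 ± 0.31, 1.46 ± 0.31, 1.65 ± 0.31 and 1.21 ± 0.31, with adjusted p of 0.00599, 0.000991, 0.000155 and 0.00435. Ank1, the ankyrin that ties spectrin to the anion exchanger, was called in WT vehicle (0.66 ± 0.22, adjusted p 0.0258), and its other values were 0.57, 0.57 and 0.25; with the block the adjusted p was 0.0495 in WT E2 and 0.0466 in KO vehicle. Dmtn, the actin bundler dematin, had differences of 0.54 to 0.74 and was not called, though with the block its adjusted p was 0.0368 in WT vehicle and 0.0473 in KO vehicle. That rests on its brightest probe: a second Dmtn probe, also detected on all 40 arrays, differed by 0.76 to 1.24 (SE 0.22), and with both averaged Dmtn was called in all 4 comparisons (0.65 to 0.94, adjusted p 0.00351 to 0.042).

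Sptb, the β-spectrin of red cells that skeletal muscle also makes, went the other way. In WT vehicle its values were 8.49, 7.89, 8.64, 7.82 and 8.63 in trabecular and 8.89, 9.01, 9.57, 10.62 and 10.79 in cortical bone. In KO E2 they were 8.0, 8.66, 8.16, 7.84 and 8.58 against 11.46, 10.06, 9.72, 9.15 and 10.90. Every cortical array lay above every trabecular one in both. The log2 difference of Sptb was -1.48, -1.66, -1.74 and -2.01 (SE 0.45), with adjusted p of 0.0156, 0.00861, 0.00464 and 0.00136.

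Skeletal muscle markers went the same way as Sptb, and whether muscle RNA accounts for the direction of Sptb was not tested. The relation below was computed for Sptb alone of the members, so how closely other genes follow the markers is not given. All 16 of 16 skeletal muscle markers, among them the actin Acta1 and the creatine kinase Ckm, were called lower in trabecular bone in each comparison, with medians of -2.49 to -1.95. Of all genes, 19.4% to 22.9% were called there in either direction. Across the 20 cortical arrays Sptb followed the mean log2 intensity of those markers, with Pearson's r of 0.838 and Spearman's rho of 0.863 (permutation p 1e-05, the smallest that 100000 permutations can give, and 2e-05; adjusted over both bones 2e-05 and 4e-05). It was 0.883 without the 2 arrays farthest from the median, 0.931 after group and BeadChip means were removed, and 0.904 to 0.996 within single BeadChips of 4 arrays. Across the 20 trabecular arrays r was 0.538 and rho 0.325 (permutation p 0.013 and 0.161), and r was 0.161 without the 2 farthest arrays, 0.691 after group and BeadChip means were removed, and -0.289 to 0.866 within BeadChips; the raw relation rests on those 2 arrays.

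**Figure D3:**
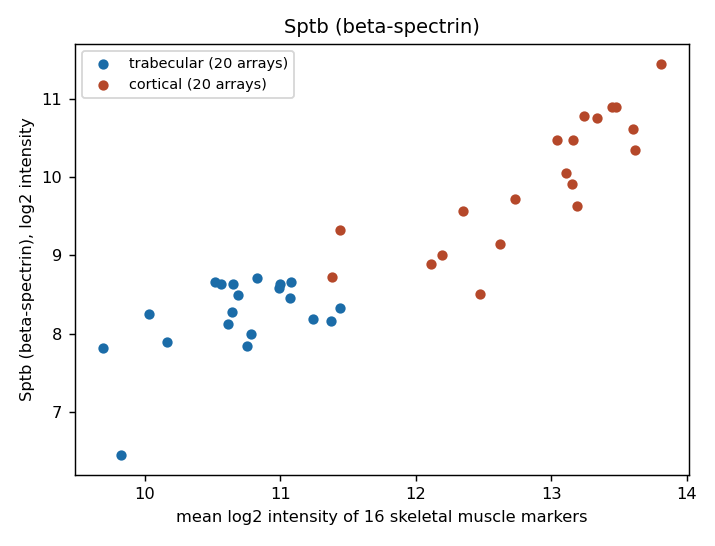
Each point is 1 array (20 trabecular in blue, 20 cortical in red), with the mean log2 intensity of 16 skeletal muscle markers on the x axis and the log2 intensity of Sptb on the y axis. Sptb rises with the muscle markers among the cortical arrays (r 0.838), and most trabecular arrays lie lower on both axes, with a small overlap.

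Of the late maturation genes, Trim10, a ring finger protein needed for terminal erythroid differentiation, was called in all 4 comparisons with differences of 0.67 to 0.91. Xpo7, an exportin used when the erythroid nucleus condenses, was called in KO E2 (1.13 ± 0.39, adjusted p 0.0372) and had differences of 0.76 to 0.88 in the others; with the block it was called in all 4, and with its probes averaged also in WT E2 (0.81, adjusted p 0.0231). With the BeadChip as a block, 20, 21, 21 and 20 of the 29 genes were called in WT vehicle, WT E2, KO vehicle and KO E2. The share of all genes called with the block is not given here, so the rise is not read as particular to these genes. Over the 4 comparisons 10 genes were called each time: Alas2, Epb41, Epor, Ermap, Icam4, Kel, Slc25a38, Tal1 and Trim10 as higher and Sptb as lower. Another 7 (Ahsp, Alad, Aqp1, Dmtn, Slc4a1, Tfrc and Uros) were not called in any of the 4 by their brightest probe. With probes averaged Dmtn, Tfrc and Uros were called at least once, as given above. How many of all genes were called in all 4, in at least 1 or in none is not given here. Counts over the 4 comparisons, here and above, are therefore not read as particular to these genes.

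Of 106 other genes with known roles in erythroid cells, 78 were tested between the bones. They were called higher in trabecular bone 28, 21, 31 and 30 times and lower 1, 0, 1 and 0 times, with medians of 0.49, 0.48, 0.43 and 0.48. In the same comparisons 9.01%, 7.99%, 9.5% and 11% of all genes were called higher. Of the iron and heme genes, Tspo2, a porphyrin-binding protein of erythroid membranes, was called in all 4 (1.05 to 1.16). Tfr2, a second transferrin receptor, was called in 2 comparisons (0.58 to 0.95 over all 4). Flvcr2, a relative of the heme exporter, was called lower in WT vehicle (-1.07) and KO vehicle (-1.17). Of the regulators, the repressor Gfi1b (0.62 to 0.83) was called in all 4, the fetal globin repressor Bcl11a (0.56 to 1.03) in 1 and the stress response factor Nfe2l2 (0.34 to 0.79) in 2. Of the membrane and cytosol genes, the channel Aqp9 (0.85 to 1.09) and Mpp1 (0.59 to 0.93) were called in all 4 and the tetraspanin Tspan33 (0.66 to 1.07) in 2. Of the signalling and maturation genes, Bcl2l1, a survival gene downstream of erythropoietin (0.61 to 1.03), was called in all 4, the conjugating enzyme Ube2l6 (0.72 to 1.43) in 3, and the kinase Pim1 (0.62 to 1.10) and the iron hormone Erfe (0.78 to 1.39) in 2 each.

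Markers of other cells also moved between the bones, and their part in the erythroid differences was not tested. Over all genes, 19.4% to 22.9% were called between the bones in either direction, and 7.99% to 11% were called higher in trabecular bone. The summed linear level of the 16 muscle markers was 28046 to 101986 on the trabecular and 92130 to 337193 on the cortical arrays, with every marker detected. By group it was 28046 to 60670, 37618 to 101986, 33464 to 76992 and 64030 to 92127 in trabecular WT vehicle, WT E2, KO vehicle and KO E2, and 133105 to 292932, 92130 to 288461, 166652 to 264829 and 188342 to 337193 in the cortical groups in the same order. Of 13 osteoblast and osteocyte genes 6 to 11 were called lower in trabecular bone (sums 101040 to 149124 and 152588 to 185511, Fgf23 detected on 0 arrays), and of 10 endothelial genes 5 to 7 were called lower (sums 7996 to 12145 and 11647 to 19900). Genes of other marrow cells were measured beside them. Of 15 neutrophil markers 0 to 1 was called higher (medians 0.12 to 0.31, sums 237484 to 306503 and 189648 to 285536). Of 11 megakaryocyte markers 0 were called in either direction (medians 0.02 to 0.20, sums 31053 to 42511 and 21826 to 51206). Of 13 macrophage markers 0 to 1 was called higher (medians 0.12 to 0.43, sums 24728 to 41443 and 20429 to 39689, Cd5l detected on 0 arrays). Of 9 B-lineage markers 2 to 3 were called higher (medians 0.38 to 0.70, sums 5980 to 18934 and 4643 to 12757, Pax5 detected on 0 arrays). Of 19 cell cycle genes 4 to 10 were called higher (medians 0.47 to 0.61, sums 48994 to 67268 and 27450 to 53071, Ccnb2 and Bub1 detected on 0 arrays).

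The second question is whether E2 changed erythroid genes within 18 h. No gene of the 33 was called in any of the 4 E2 comparisons with limma, where 0.207% (trabecular WT), 0.0115% (trabecular KO), 0.143% (cortical WT) and 0% (cortical KO) of all genes were called. Unadjusted limma p was under 0.05 for 6.78%, 4.18%, 3.13% and 3.56% of all genes, and for 0, 1, 0 and 1 of the tested members. Their median log2 difference was 0.06 in trabecular WT, with single genes from -0.32 to 0.55, and 0.18 in trabecular KO (-0.18 to 0.66). It was 0.07 in cortical WT (-0.10 to 0.32) and 0.14 in cortical KO (-0.31 to 0.84), while the medians of all genes lay between -0.02 and 0. A p that misses the threshold does not show that E2 left these genes alone.

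In trabecular WT the smallest p belonged to Uros (0.55 ± 0.36, adjusted p 0.791), Rhag (0.41 ± 0.27, adjusted p 0.793) and Epb41 (0.37 ± 0.25, adjusted p 0.807). Of the Uros differences within BeadChips, that of BeadChip 1 was 2.36, where its vehicle array was low (8.86). In trabecular KO it belonged to Slc25a37 (0.47 ± 0.19, adjusted p 0.965), Hemgn (0.45 ± 0.21) and Xpo7 (0.66 ± 0.33), and 24 of 29 differences were positive against 49.1% of all genes. The median of the genes there was positive on 5 of 5 BeadChips, from 0.01 to 0.33. In cortical WT the smallest p belonged to Gata1 (0.32 ± 0.23), Epor (0.28 ± 0.24) and Dmtn (0.27 ± 0.24), all with an adjusted p of 1. In cortical KO it belonged to Fech, Rhag (0.75 ± 0.37) and Epb41 (0.63 ± 0.34), with an adjusted p of 0.999. Fech there had 8.36, 9.01, 9.46, 9.53 and 8.40 with E2 and 8.64, 8.35, 6.93, 8.23 and 8.41 with vehicle, a difference of 0.84 ± 0.31. The groups overlapped, and on 2 of 5 BeadChips the E2 array was the lower one. With arrays weighted by quality Fech was called there (1.01, adjusted p 0.0485), the only call of a member by E2 or genotype under any alternative. The 16 muscle markers had median E2 differences of 0.50 in trabecular WT and 0.47 in trabecular KO, over the 15 tested there, and 0 were called. In cortical bone, where all 16 were tested, the medians were -0.06 in WT and 0.08 in KO, again with 0 called.

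The third question is whether the AF-1 deletion changed erythroid genes. With limma 0 genes were called in any of the 4 comparisons of KO with WT, where 0% (trabecular vehicle), 0.0345% (trabecular E2), 0% (cortical vehicle) and 0.022% (cortical E2) of all genes were called. Unadjusted limma p was under 0.05 for 4.27%, 3.91%, 2.83% and 2.08% of all genes, and for 1, 0, 4 and 0 of the tested members. In trabecular vehicle their median was -0.23 (-0.51 to 0.15) and 25 of 29 were negative, against 50.4% of all genes positive. The BeadChips differed in sign: the median on BeadChip 1 was 0.50 and on BeadChips 2 to 5 it was 0, -0.53, -0.38 and -0.32. In cortical vehicle the median was -0.17 (-0.81 to 0.25) and 19 of 28 were negative; on single BeadChips it ran from -0.58 to 0.19. With E2 the medians were -0.07 in trabecular and -0.09 in cortical bone. The E2 comparisons in KO and the genotype comparisons in vehicle share the KO vehicle arrays, so their medians of opposite sign are not independent of each other.

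Tfrc was the member with the smallest p in trabecular vehicle. Its values were 12.39, 13.15, 13.24, 13.43 and 13.59 in KO and 13.14, 13.67, 13.86, 13.81 and 13.88 in WT. The KO array was lower on 5 of 5 BeadChips, yet the groups overlapped, and the difference of -0.51 ± 0.21 had an adjusted p of 0.941. Tfrc was also lower in KO on 5 of 5 BeadChips in trabecular E2 (-0.35 ± 0.21, adjusted p 0.999) and cortical vehicle (-0.39 ± 0.17, adjusted p 1). In cortical E2 its means were close, 13.03 in KO and 13.11 in WT, and on BeadChip 3 the KO array was the higher one (13.14 against 12.53). The next in trabecular vehicle were Icam4 (-0.38 ± 0.19) and Trim10 (-0.37 ± 0.19). In cortical vehicle Fech (-0.81 ± 0.31) and Trim10 (-0.49 ± 0.21) had the smallest p, and in trabecular E2 Ahsp (-0.21 ± 0.12) and Ank1 (-0.27 ± 0.19) stood beside Tfrc. In cortical E2 they were Gata1 (-0.38 ± 0.23), Slc4a1 (-0.16 ± 0.12) and Trim10 (-0.26 ± 0.21). Each of these had an adjusted p of 0.941 or above. The muscle markers were higher in cortical KO for 16 of 16 with vehicle (median 0.29) and with E2 (median 0.46), with 0 called.

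**Figure D4:**
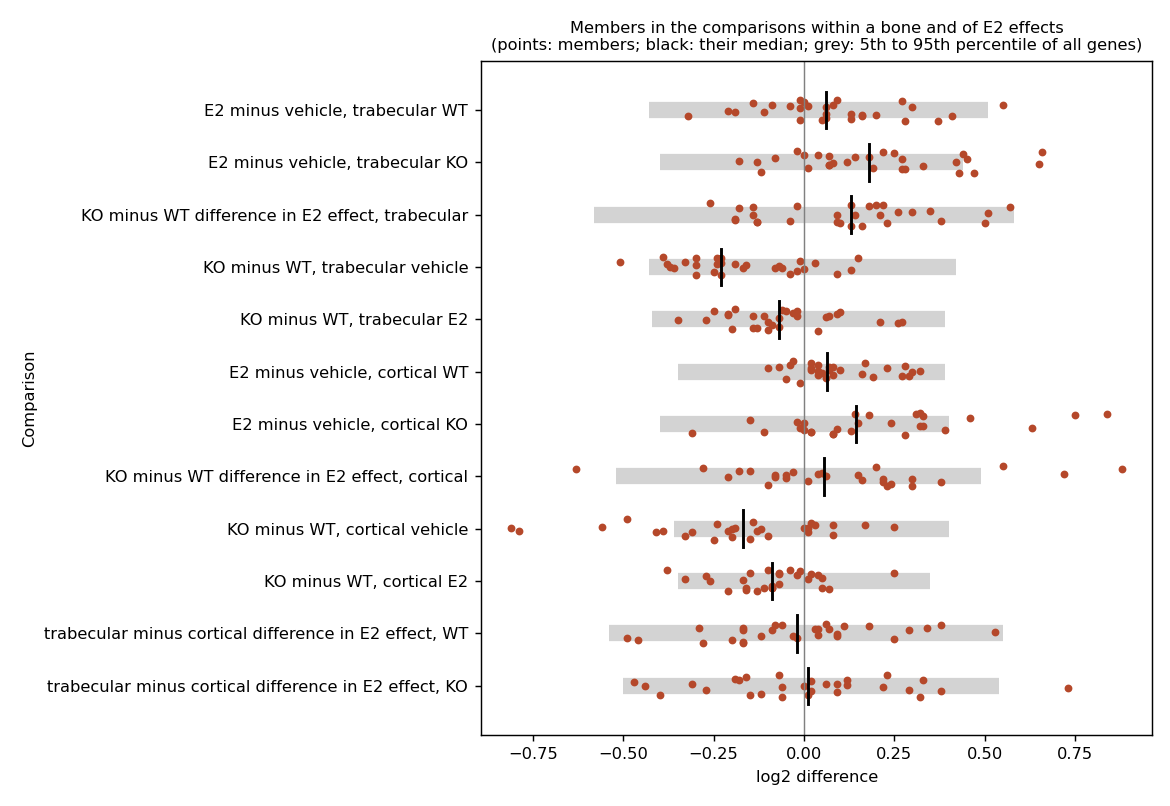
The log2 differences of the tested genes (red points) are plotted for the comparisons of E2 with vehicle, of KO with WT, and of E2 effects between genotypes and bones, with the median of the genes in black and the 5th to 95th percentile of all genes in grey. Medians lie between -0.23 and 0.18, and no point is a called difference.

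Differences in the E2 effect were tested directly. Between genotypes the median difference of the genes was 0.13 in trabecular bone and 0.05 in cortical bone. With limma 0 genes were called, none with an unadjusted p under 0.05 (all genes called 0.0115% and 0%, under an unadjusted 0.05 3.65% and 2.35%). The smallest p belonged to Slc25a37 (0.51 ± 0.27), Gata1 (0.57 ± 0.42) and Trim10 (0.35 ± 0.27) in trabecular bone and to Fech (0.88 ± 0.44), Gata1 (-0.63 ± 0.33) and Rhag (0.72 ± 0.53) in cortical bone. Between the bones the E2 effect differed by a median of -0.02 in WT and 0.01 in KO. Again 0 were called and 0 lay under an unadjusted p of 0.05 (all genes called 0.0106% and 0%, under an unadjusted 0.05 2.71% and 2.14%). There the smallest p belonged to Epor (-0.49 ± 0.31), Uros (0.53 ± 0.43) and Gata1 (-0.46 ± 0.38) in WT and to Gata1 (0.73 ± 0.38), Slc25a37 (0.38 ± 0.28) and Ank1 (-0.31 ± 0.31) in KO. Standard errors of 0.27 to 0.53 for these named genes set how small a difference these 5 arrays a group could show. Of the other erythroid genes, limma called 0 in these 12 comparisons of E2, genotype and their differences.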

How the data were processed

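RNA of 40 samples was measured on Illumina BeadChips, read with GenomeStudio per the submitters' processing notes (version not given in the sources used here). Per the file headers, the deposited table gives each probe's mean bead intensity and a detection p-value for each array; judged from the values, the authors deposited the intensity without background subtraction or normalization between arrays. A second table deposited by the authors holds normalized intensity and served as an alternative. Background was corrected with the detection p-values, an offset of 16 was added, and arrays were quantile-normalized and put on the log2 scale (neqc, limma 3.58.1, R 4.3.3). Probes with a detection p under 0.01 on 5 or more arrays of a fit entered it, 1 for each gene, chosen as the brightest. Group means were fitted with lmFit and eBayes, over 20 arrays within a bone and 40 between bones. Adjustment for multiple testing followed Benjamini and Hochberg across every gene in the fit; called means an adjusted p under 0.05. The fit was tested on simulated data.

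Groups came from the labels. The replicate number marks the BeadChip shared by 1 array of each group, so the labels pair the arrays; residuals of same-numbered arrays correlated on average by 0.0372 to 0.304 in trabecular and -0.0436 to 0.36 in cortical bone. The block by BeadChip was run as an alternative. Array signal over background and the number of arrays limit the precision. Gene symbols were updated through RefSeq (GRCm38.p6): 20733 probes had a current symbol, 3904 an older one, 3 another letter case, and 1057 kept the file's name; Eraf was read as Ahsp by the selection rule. For 15 members with several probes, the 10 with several kept ones gave 40 pairs of gene and bone comparison, of which 1 had probes of opposite sign.

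Named genes were the members called in a comparison, a set list of regulators, receptors, heme enzymes and red cell proteins in every comparison, the 3 members of smallest p where none was called, and up to 4 called genes of each other erythroid list, some of which are not reported here. The members and all lists were chosen with earlier results of these data known. Promoter motifs were searched on both strands with overlaps allowed. Alternatives were the replicate block, another normalization, background and filter, other probes, a stricter threshold, array weights, fewer arrays and the authors' deposited intensities.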

Additional observations from a re-analysis of the deposited data

Results flagged for a closer look

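Single arrays stood far from the other 4 of their group (by Dixon's test) for 25 of 232 combinations of gene and group, or 10.8%, in 18 genes; chance flags about 1 in 20. Of these, 6 lay on the trabecular WT vehicle array of BeadChip 1, 5 on the trabecular KO vehicle array of BeadChip 1 and 3 on the cortical KO E2 array of BeadChip 5. The trabecular arrays of BeadChip 1 also had the fewest detected probes. All values are log2 intensities, and no cause was tested.

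On the trabecular WT vehicle array of BeadChip 1, all 6 genes were low: Aqp1 was 12.97 (others 14.10 to 14.28), Slc4a1 13.51 (14.65 to 14.91), Tal1 10.73 (11.92 to 12.08), Tfrc 13.14 (13.67 to 13.88), Urod 13.05 (14.09 to 14.29) and Uros 8.86 (10.83 to 11.55). The trabecular KO vehicle array of BeadChip 1 had both high and low genes. Aqp1 was 14.62 (13.88 to 14.09), Rhd 8.38 (5.84 to 6.52) and Slc25a38 13.64 (12.80 to 12.95) there, above the others, while Slc4a1 was 14 (14.70 to 14.94) and Sptb 6.44 (8.12 to 8.66), below them. On the cortical KO E2 array of BeadChip 5, Ahsp was 14.21 (14.72 to 14.82), Epb41 7.97 (9.12 to 9.58) and Ppox 9.86 (10.96 to 11.19), all low.

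In trabecular WT E2, Ermap was 11.06 (11.38 to 11.46) and Xpo7 7.89 (8.89 to 9.24) on BeadChip 1, Fech was 9.36 (9.85 to 10.01) on BeadChip 2, and Sptb was 8.71 (8.19 to 8.33) on BeadChip 5. In trabecular KO vehicle, Ppox was 11.63 (11.14 to 11.27) on BeadChip 2 and Dmtn 11.41 (11.87 to 11.95) on BeadChip 3. Ermap was 10.98 (11.47 to 11.66) in trabecular KO E2 on BeadChip 3. In cortical bone, Aqp1 was 13.13 (13.81 to 14.03) in WT vehicle and Ank1 11.70 (10.75 to 10.93) in KO vehicle, both on BeadChip 1, and on BeadChip 3 Rhag was 8.47 (9.84 to 10.01) in WT E2 and Fech 6.93 (8.23 to 8.64) in KO vehicle.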

How the results depend on the processing

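For the 64 called differences of members between the bones, 1718 values were computed under alternatives; 1359 stayed called, 359 lost the call and 0 changed direction. The medians of the genes stayed between 0.49 and 0.84. With the replicate block, 20, 21, 21 and 20 genes were called in WT vehicle, WT E2, KO vehicle and KO E2 (16, 15, 17 and 16 without it), 0 calls were lost, and counts in all other comparisons stayed at 0. Median scaling gave 2, 1, 2 and 1, and 58 of the 64 calls were lost; the cause was not tested. An adjusted p under 0.01 gave 8, 5, 8 and 10. In WT E2, array weights gave 26, and leaving out BeadChip 1 with the replicate block gave 24. The shares of all genes called with the block, the stricter threshold and array weights are not given here, so these counts stand without them. In cortical KO, array weights gave 1 gene called by E2 (Fech), and in the other 11 comparisons of E2 and genotype every alternative gave 0. Leaving out 1 BeadChip or 1 array gave 4 to 22 genes in WT vehicle, 2 to 20 in WT E2, 7 to 22 in KO vehicle and 6 to 19 in KO E2. The lowest counts came without BeadChip 4 in WT vehicle (4; 10 without BeadChip 5), BeadChips 2, 3 and 5 in WT E2 (3, 2 and 7), BeadChips 2, 3 and 4 in KO vehicle (9, 11 and 7) and BeadChip 5 in KO E2 (6), where fewer arrays were fitted. Of single arrays, the trabecular one of BeadChip 5 (8) and the cortical one of BeadChip 3 (8) in WT E2, the trabecular one of BeadChip 4 (11) and the cortical ones of BeadChips 3 and 4 (8 and 11) in KO vehicle, and the cortical one of BeadChip 5 (10) in KO E2 moved the count by over 1.5 times. Signal over background limits Rhd, Cpox, Add2, Bpgm and Epb42.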
